A study of Mus musculus with 4 samples.

Results

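The ligands and receptors of the tumour necrosis factor (TNF) superfamily were followed in lamina propria mononuclear cells (LPMCs), a leukocyte preparation from the layer of gut wall that lies beneath the epithelium. Members were taken by symbol: every gene of the deposited table named Tnfsf or Tnfrsf with a number, together with Tnf, Lta, Ltb, Ltbr, Fas, Fasl, Cd27, Cd70, Cd40, Cd40lg, Eda2r and Ngfr. This gave 44 of the 48526 genes in the table, of which 17 encode ligands, 26 encode receptors and 1, Tnfsf13os, is an antisense RNA that the symbol rule also takes. The rule uses symbols and no measured value, but it was set with earlier results of these data known.

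The 4 samples are mouse LPMCs after transfer of CD4 T cells. In 2 of them the transferred cells were wild type, with pronounced colitis in the labels. In the other 2 the transferred cells were Hobit x Blimp DKO, a double knockout of a pair of related transcriptional repressors, with mild colitis in the labels. The groups are called wild type and DKO here, and only the transferred cells, not every cell of a sample, carry the genotype. Genotype and severity of colitis go together in the labels and cannot be told apart. Not given in the sources used here: strain, age and sex of the mice, the host that received the cells, and any pooling of animals.

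TNF superfamily ligands are mostly made as membrane-anchored proteins, and many can be released by proteases. Their receptors carry cysteine-rich repeats outside the cell and recruit TRAF adaptors, which lead to NF-kappaB, or death domain adaptors, which lead to caspases, while decoy receptors bind a ligand without passing on a signal. In the gut the family includes TNF itself, the target of antibodies used against inflammatory bowel disease, the lymphotoxins that shape lymphoid tissue, and the costimulatory receptors of T cells.

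Values are regularized log2 expression (rlog), the scale on which the authors deposited them, and 1 unit is a doubling apart from the shrinkage that rlog applies to genes with few reads. Read depth per sample is unknown. The median rlog of the 13528 tested genes, those with a mean rlog of at least 4, lay between 8.33 and 8.35 in the 4 samples. Of the defining genes of the preparation, Cd3e (10.59 to 11.04), Cd4 (12.00 to 12.17) and the macrophage gene C1qa (11.65 to 12.31) were present throughout, and so were Epcam of epithelium (10.75 to 11.05) and Pecam1 of endothelium (10.52 to 11.09). Of B cell genes, Pax5 was listed at 0 in all 4 samples and Cd79a, Ms4a1, Cr2 and Fcer2a were below 0 on the rlog scale, while Fcrla (2.26 to 2.47), Blk (3.62 to 4.01), Cd79b (5.71 to 5.77) and Ebf1 (5.79 to 6.48) were above it. In bulk samples such as these, fewer cells of a type and less RNA per cell cannot be told apart.

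Of the tested members 4 receptors and 1 ligand differed between the groups. Tnfrsf26, an orphan receptor of the mouse, fell 2.94-fold in DKO. The ligand Tnfsf13b (BAFF, the survival factor of B cells) rose 1.6-fold, and the decoy receptor Tnfrsf11b (osteoprotegerin) rose 1.5-fold. The receptors Eda2r and Tnfrsf19 (TROY) rose 1.4-fold and 1.37-fold. Tnf, both TNF receptors, the lymphotoxin genes and all 5 costimulatory receptors did not pass the test. In limma with Benjamini-Hochberg adjustment over all 13528 tested genes, 4 of 37 tested members rose and 1 fell at a threshold of 0.05.

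That is 13.5% of the tested members, against 14.8% of all tested genes (9.92% higher and 4.85% lower in DKO), so the family as a whole was called about as often as genes at large. The median difference of the tested members was 0.013, against -0.02 over all tested genes. The groups did not overlap for 21 of 37 tested members, 12 with DKO above and 9 with DKO below, or 56.8% against 55.3% of all tested genes (25.0% above and 30.3% below). In limma, 13 of 37 tested members had an unadjusted p under 0.05, against 3577 of all 13528 tested genes. Of these members, 8 did not pass after adjustment. The counts depended on single libraries, for the members and for all tested genes alike. Leaving out DKO replicate 2 raised the number of calls over all tested genes. A member that passes only in that setting is therefore not set apart from genes at large.

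**Figure D1:**
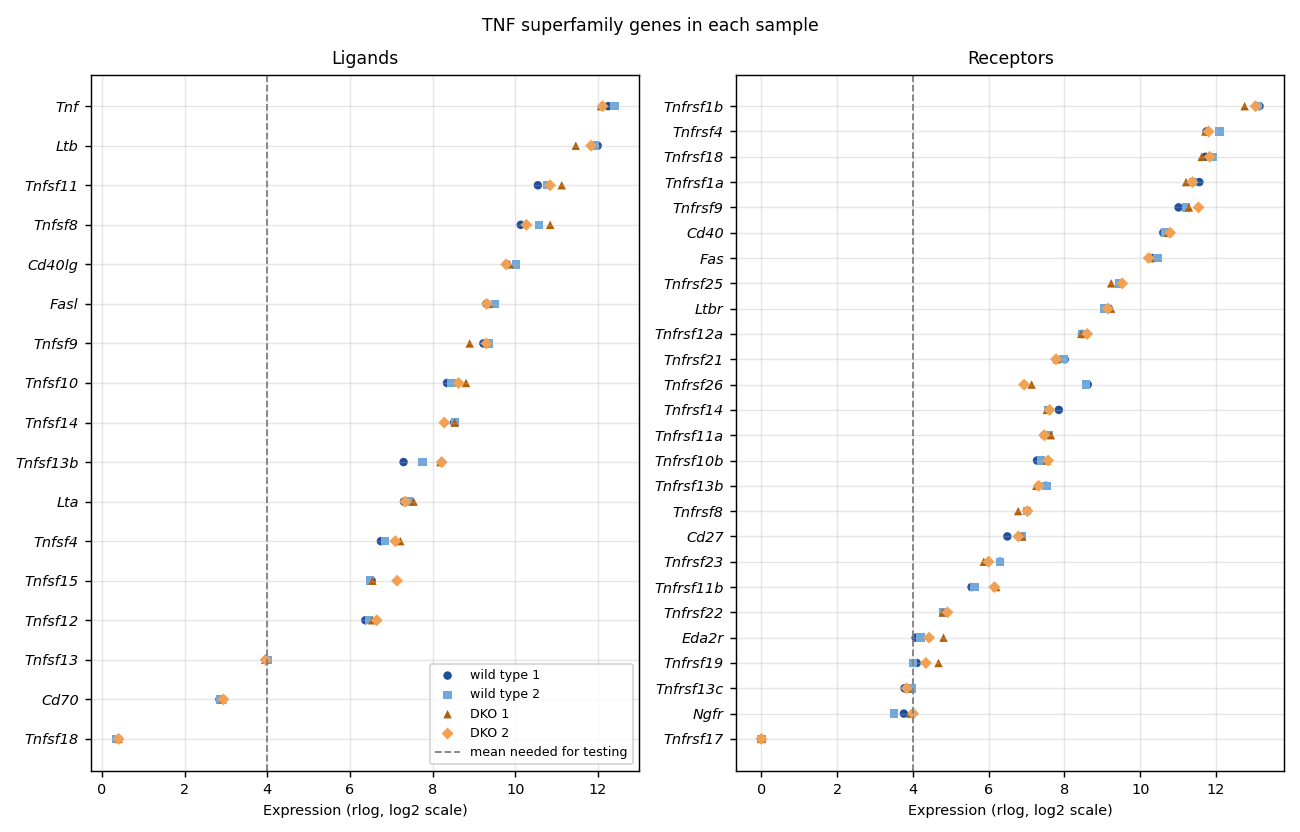
Expression of the 17 ligand and 26 receptor genes in each of the 4 samples, on the rlog (log2) scale, with genes ordered by their mean and the dashed line at the mean of 4 needed for testing. In most genes the 4 points lie close together, and the clear exception is Tnfrsf26, where the wild-type samples stand at 8.62 and 8.57 and the DKO samples at 7.13 and 6.93.

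Levels of different genes were compared after subtracting the log2 of the exon length in kilobases from the mean rlog over the 4 samples. On this length-corrected scale the most abundant ligand was Tnf (11.49), followed by Ltb (11.20), Tnfsf11 (9.66) and Cd40lg (9.53). The most abundant receptors were the T cell costimulators Tnfrsf4 (11.39) and Tnfrsf18 (11.16), followed by Tnfrsf1b (11.08) and Tnfrsf1a (10.01), the receptors of TNF. The members that changed came from lower in this order, with Tnfrsf26 at 6.13, Tnfsf13b at 5.08, Tnfrsf11b at 4.39, Tnfrsf19 at 2.04 and Eda2r at 1.82.

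Among the ligands of inflammation, Tnf, the founding cytokine of the family, stood at rlog 12.24 and 12.39 in wild type and at 12.06 and 12.11 in DKO. Both DKO samples were below both wild-type samples, but the difference of -0.23 (SE 0.0879, 95% interval -0.42 to -0.036) did not pass in limma (adjusted p = 0.116). Ltb, the membrane-bound partner of lymphotoxin alpha, was at 11.99 and 11.91 in wild type and at 11.46 and 11.83 in DKO. DKO replicate 1 was the lowest sample, and the difference was -0.31 (SE 0.113, adjusted p = 0.102.) Without DKO replicate 2 it was -0.49, and without DKO replicate 1 it was -0.12. Lta, the soluble lymphotoxin, lies beside Tnf and Ltb within 10.9 kb of chromosome 17 (35194439 to 35205351, GRCm38). Its samples overlapped, from 7.30 to 7.54, with a difference of 0.077.

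Tnfsf14 (LIGHT), a ligand shared by Ltbr and Tnfrsf14, ranged from 8.28 to 8.54 and its groups overlapped. Tnfsf15 (TL1A), a costimulator of T cells made by myeloid and endothelial cells, was near 6.5 in 3 samples (6.52 and 6.48 in wild type, 6.54 in DKO replicate 1) and at 7.14 in DKO replicate 2. Its difference of 0.34 (adjusted p = 0.232) therefore rested on DKO replicate 2. With DKO replicate 1 left out it was 0.63, and with DKO replicate 2 left out it was 0.038. Tnfsf12 (TWEAK) was at 6.37 and 6.46 in wild type and at 6.54 and 6.64 in DKO, a difference of 0.18 that did not pass (adjusted p = 0.357). Of the 50-base stretches in its annotated transcripts, 46.8% also occur in the read-through gene Tnfsfm13, so its reads cannot be fully assigned.

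Of the ligands that trigger cell death, Fasl, the ligand of Fas on cytotoxic lymphocytes, ranged from 9.30 to 9.50 with overlapping groups. Tnfsf10 (TRAIL), which binds death receptors and several decoys, was at 8.34 and 8.46 in wild type and at 8.80 and 8.62 in DKO. Its groups did not overlap, and the difference was 0.31 (SE 0.0986, adjusted p = 0.0578.) It passed with a robust variance estimate (adjusted p = 0.036) and without DKO replicate 2 (adjusted p = 0.00891).

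None of the 4 tested costimulatory ligands passed. Tnfsf4 (OX40 ligand) came closest, at 6.75 and 6.85 in wild type and 7.22 and 7.09 in DKO. Both DKO samples were the higher, and the difference was 0.36 (SE 0.11, adjusted p = 0.0532.) Without the variance trend (adjusted p = 0.0372), with a robust variance estimate (adjusted p = 0.0407) and without DKO replicate 2 (adjusted p = 0.0284) it passed. Tnfsf8 (CD30 ligand) was at 10.13 and 10.57 in wild type and 10.84 and 10.27 in DKO so that the groups were interleaved. Without DKO replicate 2 its difference moved from 0.2 to 0.49, and without DKO replicate 1 it was -0.084. Its sign thus depended on which DKO sample was kept. Tnfsf9 (4-1BB ligand) was lowest in DKO replicate 1 at 8.89, with the other 3 samples from 9.22 to 9.35. Its difference of -0.19 became -0.39 without DKO replicate 2. Cd40lg, by which helper T cells license antigen-presenting cells, ranged from 9.77 to 10.01 with overlapping groups (difference -0.082, 95% interval -0.29 to 0.12). Cd70 (2.84 to 2.94) and Tnfsf18 (0.35 to 0.40) had too low a mean to be tested.

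Tnfsf13b was the 1 ligand that passed. It encodes BAFF, which keeps B cells alive through 3 receptors, and lies on chromosome 8 from 10006467 to 10039072. Its rlog was 7.29 and 7.76 in wild type and 8.18 and 8.22 in DKO. The DKO samples nearly coincided above both wild-type samples. The difference was 0.68 (SE 0.138, adjusted p = 0.00628), and it lay between 0.44 and 0.91 when single samples were left out. With no minimum on the mean rlog it did not pass (adjusted p = 0.184).

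None of the 3 BAFF receptors rose with it. Tnfrsf13b (TACI), which also binds APRIL, was at 7.52 and 7.53 in wild type and at 7.26 and 7.32 in DKO. These groups did not overlap, with DKO the lower, but the difference was -0.23 (SE 0.102, adjusted p = 0.17.) Tnfrsf13c (the BAFF receptor) stayed between 3.78 and 3.97, under the minimum for testing, and Tnfrsf17 (BCMA) was listed at 0 in all 4 samples. Of the list of 10 B cell genes only Ebf1 and Cd79b could be tested. Ebf1, which stromal cells also express, rose (0.61, adjusted p = 0.00324), and Cd79b did not pass (0.045). Tnfsf13 (APRIL), the other ligand of TACI, had a mean of 3.97 and was not tested. It shares 57.3% of its 50-base stretches with Tnfsfm13 and overlaps Tnfsf13os, itself at 3.69 to 3.95, on the other strand.

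The bases before the start sites of Tnfsf13b, Eda2r and Tnfrsf19 are shown because these 3 members rose. None is shown for Tnfrsf11b and Tnfrsf26. RefSeq promoter windows (GRCm38.p6) were found for 33 of the 44 members. The windows are chr8:10006217-10006466 (plus strand), chrX:97377210-97377459 (minus strand) and, for the outer of 2 start sites of Tnfrsf19, chr14:61046856-61047105 (minus strand). Each is written 5′ to 3′ and ends at the base before the start site, and capitals mark a TATAAA match.
Tnfsf13b: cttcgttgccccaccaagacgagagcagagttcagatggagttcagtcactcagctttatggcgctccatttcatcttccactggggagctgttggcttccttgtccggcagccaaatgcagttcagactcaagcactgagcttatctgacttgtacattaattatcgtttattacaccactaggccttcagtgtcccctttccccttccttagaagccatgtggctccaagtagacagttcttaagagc
Eda2r: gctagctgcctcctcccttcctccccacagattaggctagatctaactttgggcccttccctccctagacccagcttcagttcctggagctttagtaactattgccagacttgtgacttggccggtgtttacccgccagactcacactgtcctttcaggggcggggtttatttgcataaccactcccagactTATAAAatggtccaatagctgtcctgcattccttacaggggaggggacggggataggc
Tnfrsf19: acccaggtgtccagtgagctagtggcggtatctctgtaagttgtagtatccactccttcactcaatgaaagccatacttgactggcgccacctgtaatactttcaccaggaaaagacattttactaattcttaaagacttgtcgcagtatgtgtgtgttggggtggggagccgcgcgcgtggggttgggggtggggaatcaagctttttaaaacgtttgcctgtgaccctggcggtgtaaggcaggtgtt
On either strand, these 3 windows were searched for TATAAA, the AP-1 letters TGANTCA, the interferon regulatory factor repeat (GAAA, any 2 bases, GAAA), the PU.1 letters GAGGAAGT and an NF-kappaB site, with overlapping matches kept. The only match was TATAAA before Eda2r, which 12.4% of all 32851 windows of this length also hold. Tnfsf13b has an inner start site too, and the window before it, which lies partly in an annotated exon, held an AP-1 match and a repeat of the interferon regulatory factor kind, in capitals here with their flanks.
Tnfsf13b AP-1 match: gtctggagTGAGTCAgtctga
Tnfsf13b interferon regulatory factor match: caaaaactGAAAGTGAAAtgcgga
The first lies at chr8:10006498-10006518 and the second at chr8:10006609-10006632, both on the plus strand. Matches to these letters occur in 6.75% and 2.98% of all windows. The window before the inner start site of Tnfrsf19 (chr14:61037988-61038237, minus strand), which also lies partly in an annotated exon, held no match.

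Tnfsf11 (RANK ligand) drives osteoclasts and M cells through Tnfrsf11a (RANK), and the secreted decoy Tnfrsf11b blocks it. Tnfrsf11b (chromosome 15, 54250619 to 54278484) was at 5.55 and 5.63 in wild type and at 6.20 and 6.15 in DKO. Both groups were tight and did not overlap, with a difference of 0.59 (SE 0.112, adjusted p = 0.00408) that was 0.54 to 0.63 when single samples were left out. With no minimum on the mean rlog it had an adjusted p = 0.0681. The ligand Tnfsf11 was at 10.54 and 10.78 in wild type and at 11.12 and 10.83 in DKO. It was higher in both DKO samples without passing (0.32, SE 0.109, adjusted p = 0.0832). When single samples were left out, its difference lay between 0.17 and 0.46. The receptor Tnfrsf11a ranged from 7.47 to 7.64, and its groups overlapped (0.022, 95% interval -0.22 to 0.26).

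Eda2r, the receptor of the A2 form of ectodysplasin, lies on chromosome X from 97333840 to 97377216. It was at 4.07 and 4.20 in wild type and 4.81 and 4.43 in DKO. The difference of 0.48 (SE 0.138, adjusted p = 0.0384) was carried most by DKO replicate 1, and was 0.29 (adjusted p = 0.175) without it. Leaving out wild-type replicate 1 (0.42, adjusted p = 0.159) or 2 also ended the call (0.55, adjusted p = 0.0536). Tnfrsf19, an orphan receptor of progenitor and mesenchymal cells, lies on chromosome 14 from 60963875 to 61046490. It was at 4.10 and 4.00 in wild type and 4.68 and 4.34 in DKO, and again DKO replicate 1 was the highest. The difference of 0.46 (SE 0.131, adjusted p = 0.0383) was 0.29 (adjusted p = 0.17) without DKO replicate 1. The call was also lost when wild-type replicate 1 (0.51, adjusted p = 0.0653) or 2 (0.41, adjusted p = 0.185) was left out. With quantile normalization (adjusted p = 0.0866 and 0.0976) or no minimum on the mean rlog (adjusted p = 0.26 and 0.238) neither Eda2r nor Tnfrsf19 passed. Both had group means above 4 in wild type as well, so neither entered the test through DKO alone.

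Besides the 4 members that rose, markers of stroma, vessels and mast cells rose in DKO, as did 9.92% of all tested genes. All 10 of 10 fibroblast and smooth muscle markers rose, with a log2 summed level of 14.77 to 14.90 in wild type and 15.73 to 15.90 in DKO. All 10 of 10 endothelial markers rose too, from 11.42 to 11.59 in wild type to 12.39 to 12.53 in DKO, and no marker of either list was at 0. Mast cell markers rose in 4 of 8, among them the proteases Mcpt2 (1.37) and Mcpt1 (1.19) and the receptor Kit (0.71), with a summed level of 11.04 to 11.25 in wild type and 12.00 to 12.23 in DKO. Of the NK cell markers 1 of 6 rose, Gzma (0.39, adjusted p = 0.0352), with a summed level of 12.73 to 12.77 in wild type and 13.01 to 13.22 in DKO. Dendritic cell markers rose in 2 of 8 (summed level 13.19 to 13.24 in wild type, 13.18 to 13.41 in DKO). The part of these cell types in the rises was not tested.

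**Figure D2:**
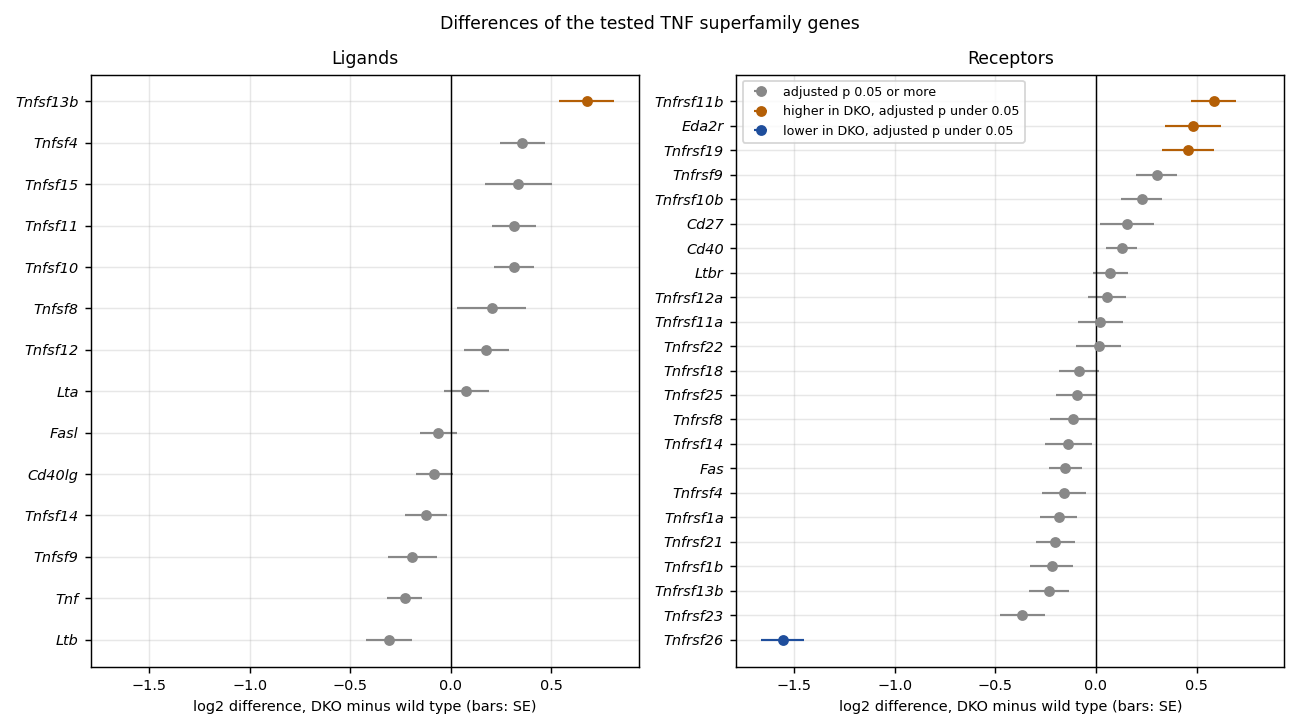
Differences of DKO minus wild type on the log2 scale for the 14 ligands and 23 receptors that were tested, with SE from limma. Tnfsf13b, Tnfrsf11b, Eda2r and Tnfrsf19 (orange) lie to the right of 0 and Tnfrsf26 (blue) alone lies beyond -1, at -1.56.

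Tnfrsf26 lies on chromosome 7 from 143607659 to 143628722 and belongs to a trio of receptor genes, with Tnfrsf22 and Tnfrsf23, within 78.2 kb. The products of Tnfrsf22 and Tnfrsf23 are decoys that bind TRAIL, and the ligand of Tnfrsf26 is not established. Tnfrsf26 stood at rlog 8.62 and 8.57 in wild type and at 7.13 and 6.93 in DKO. Samples of a group lay close together and the groups far apart, with a difference of -1.56 (SE 0.106, 95% interval -1.79 to -1.32, adjusted p = 1.14e-05). It had the 7th lowest difference of the 13528 tested genes. It passed under each of the 13 alternative settings tried, with differences from -1.66 to -1.46 and its highest adjusted p = 0.0434, with no minimum on the mean rlog.

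Its neighbours did not share the size of that fall. Tnfrsf23 was at 6.30 in both wild-type samples and at 5.87 and 5.997 in DKO, lower in both, with a difference of -0.37 (SE 0.112, adjusted p = 0.0514). It stood just outside the threshold and passed with quantile normalization (adjusted p = 0.0174), median centring (adjusted p = 0.0476), a robust variance estimate (adjusted p = 0.0449), no variance trend (adjusted p = 0.0291) or without DKO replicate 2 (adjusted p = 0.0278). Tnfrsf22 ranged from 4.79 to 4.91 with overlapping groups and a difference of 0.013 (95% interval -0.24 to 0.26). The 95% intervals of Tnfrsf23 (-0.61 to -0.12) and Tnfrsf22 lie above that of Tnfrsf26, while the differences between these genes were not themselves tested.

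Counting can mix Tnfrsf22 and Tnfrsf23, which share 719 of their 50-base stretches (17.3% and 18% of each, and 27.4% of those of Tnfrsf22 occur in some other gene), but for Tnfrsf26 0 of 3168 such stretches occur on the same strand in another annotated gene. Within 500000 bases of Tnfrsf26, a distance chosen after the values were seen, 13 genes were tested. Tnfrsf26, around which the window was drawn, was the only 1 that fell, and 3 rose. Of all tested genes 9.92% rose and 4.85% fell, and nothing is read from these small counts. Those that rose were the cell cycle inhibitor Cdkn1c (0.43, adjusted p = 0.0331), the lipid transfer protein gene Osbpl5 (0.36, adjusted p = 0.0329) and the scaffold gene Shank2 (0.5, adjusted p = 0.0129). The nearby genes Cars (0.091) and Nap1l4 (0.21, adjusted p = 0.122) did not pass.

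Markers of several cell types also fell in DKO, as did 4.85% of all tested genes. All 12 of 12 neutrophil markers fell, with a log2 summed level of 15.76 to 15.85 in wild type and 14.16 to 14.67 in DKO. Macrophage markers fell in 6 of 8 (14.69 to 14.72 in wild type, 14.15 to 14.37 in DKO). Monocyte markers fell in 3 of 7, Chil3 (-1.5), Ly6c2 (-0.85) and F10 (-0.48), and rose in 1, Fn1 (0.73). Their summed level, Fn1 included, was 14.49 to 14.55 in wild type and 14.30 to 14.44 in DKO. No marker of these lists was at 0. Plasmacytoid dendritic cell markers fell in 3 of 6 and rose in 1 (12.60 to 12.66 in wild type, 12.65 to 12.71 in DKO). Of the eosinophil markers 1 of 2 tested fell, Ccr3 (-0.76, adjusted p = 0.0185), with a summed level of 7.08 to 7.58 in wild type and 6.61 to 6.83 in DKO. Of the plasma cell markers 1 of 6 tested fell, Sdc1 (-0.74, adjusted p = 0.00129), while Jchain (2.04 to 2.52) and Mzb1 (2.19 to 2.40) were too low to test. The summed level was 12.95 to 12.98 in wild type and 12.66 to 12.67 in DKO. It rested mostly on Sdc1 (10.83 to 11.81) and Xbp1 (11.81 to 11.96), and Xbp1 did not pass (-0.0018). The part of these cells in the fall of Tnfrsf26 was not tested.

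**Figure D3:**
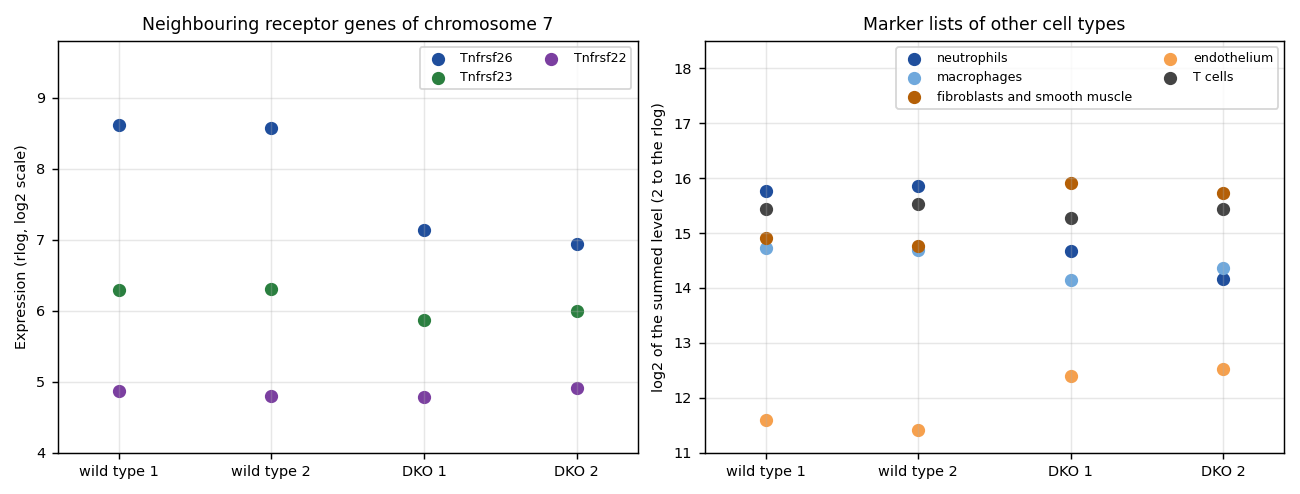
Left, rlog of the neighbouring receptor genes Tnfrsf26, Tnfrsf23 and Tnfrsf22 in each sample; right, log2 of the summed level (2 to the power of the rlog) of 5 marker lists in the same samples. Tnfrsf26 drops from about 8.6 to about 7 between the groups while Tnfrsf22 stays between 4.79 and 4.91, and the neutrophil list drops from 15.76 and 15.85 to 14.67 and 14.16.

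The 5 tested receptors with a death domain all failed the test. Tnfrsf1a, the broadly expressed TNF receptor, was at 11.56 and 11.40 in wild type and at 11.21 and 11.38 in DKO. The DKO samples were the lower, by a narrow margin, with a difference of -0.19 (SE 0.0919, adjusted p = 0.23). Fas was at 10.34 and 10.46 in wild type and at 10.27 and 10.22 in DKO (-0.15, adjusted p = 0.269). Tnfrsf21 (DR6) was at 8.01 and 7.97 in wild type and at 7.80 and 7.78 in DKO (-0.2, adjusted p = 0.209).

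Tnfrsf10b, the mouse TRAIL death receptor, went the other way, from 7.28 and 7.38 in wild type to 7.54 and 7.57 in DKO (0.23, adjusted p = 0.19). For Tnfrsf1a, Fas, Tnfrsf21 and Tnfrsf10b the groups did not overlap, as was so for 55.3% of all tested genes. Tnfrsf25 (DR3), the receptor of TL1A, ranged from 9.23 to 9.52 with overlapping groups. Ngfr, the low-affinity neurotrophin receptor, stood at 3.76 and 3.50 in wild type and 3.94 and 4.01 in DKO and was not tested, its mean being under 4.

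Of the inflammatory receptors that bind TRAFs without a death domain, Tnfrsf1b, the TNF receptor of leukocytes, was at 13.15 and 13.10 in wild type and at 12.76 and 13.05 in DKO, and DKO replicate 1 was the lowest sample. The difference was -0.22 (SE 0.109, adjusted p = 0.23.) Without DKO replicate 2, Tnfrsf1b and Tnfrsf1a were at -0.37 and -0.27, and without DKO replicate 1 they were at -0.076 and -0.1. Ltbr, which drives lymphoid tissue formation, ranged from 9.06 to 9.23, Tnfrsf12a (the TWEAK receptor) from 8.45 to 8.60 and Tnfrsf14 (HVEM) from 7.54 to 7.85. All 3 had overlapping groups.

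Of the 5 costimulatory receptors of T cells 0 passed in limma, and 1, Tnfrsf9, had an unadjusted p under 0.05. Tnfrsf4 (OX40), Tnfrsf18 (GITR), Tnfrsf8 (CD30) and Cd27 had overlapping groups and differences from -0.16 to 0.15. Tnfrsf9 (4-1BB), a receptor of activated T cells, was at 11.01 and 11.21 in wild type and 11.29 and 11.54 in DKO. DKO replicate 2 was the highest sample, and the difference was 0.3 (SE 0.103, adjusted p = 0.0786.) It passed without DKO replicate 1 (0.43, adjusted p = 0.00165) and with quantile normalization (0.37, adjusted p = 0.033). Of 10 T cell markers 0 passed in limma. At an unadjusted p under 0.05 in limma, 4 were lower and 0 higher in DKO, against 1635 lower and 1942 higher of 13528 tested genes. The difference was negative for 9 of the 10, against 7484 of 13528. Their summed level was 15.44 to 15.53 in wild type and 15.28 to 15.44 in DKO. Cd40, the receptor of Cd40lg on antigen-presenting cells, was at 10.61 and 10.66 in wild type and at 10.74 and 10.79 in DKO, a non-overlapping but small difference of 0.13 (adjusted p = 0.336).

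Ligands and receptors were also read as pairs. Of 29 textbook pairs, 23 had both partners tested, and in 0 of these did both partners pass in limma. With 14.8% of all tested genes called, nothing is read from that count. In 3 pairs 1 partner passed: Tnfsf13b with Tnfrsf13b, and the decoy Tnfrsf11b with each of its ligands, Tnfsf11 and Tnfsf10. The partners' differences had the same sign in 11 pairs and opposite signs in 12, and several pairs share a gene. For TNF and its receptors all 3 differences were negative (-0.23, -0.19 and -0.22), while for OX40, CD30 and TL1A the ligand was positive and the receptor negative (0.36 and -0.16, 0.2 and -0.11, 0.34 and -0.096). The 4-1BB pair was the reverse, with the ligand at -0.19 and the receptor at 0.3. None of these single genes passed the test.

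**Figure D4:**
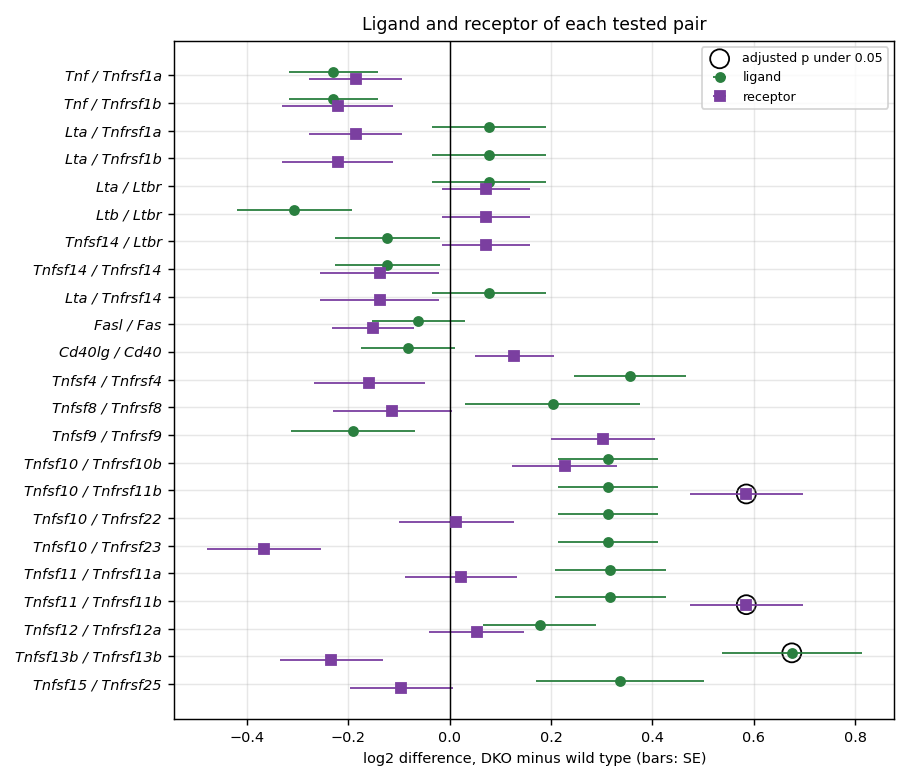
Differences of DKO minus wild type (log2 scale, bars are SE) for the ligand (green circle) and the receptor (purple square) of each of the 23 pairs in which both were tested. The rings mark partners with an adjusted p under 0.05, which are Tnfsf13b at 0.68 and Tnfrsf11b at 0.59, and no pair has rings on both partners.

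Members that are neighbours on a chromosome were compared side by side, taking members at most 500000 bases apart. On chromosome 1, Tnfsf4 (0.36) and Fasl (-0.063) lie within 393 kb. On chromosome 6, Cd27 (0.15), Ltbr (0.071) and Tnfrsf1a (-0.19) lie within 130 kb, and on chromosome 4, Tnfrsf4 (-0.16) and Tnfrsf18 (-0.082) lie within 15.1 kb. Of these neighbours 0 passed, and the only group of neighbours with a member that passed was the trio on chromosome 7.

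Downstream of the receptors, signalling genes differed little. Of 47 genes in 6 lists, all tested, 1 rose and 0 fell in limma, or 2.13% against 14.8% of all tested genes. At an unadjusted p under 0.05 in limma the counts were 1 higher and 4 lower, against 1942 higher and 1635 lower of 13528 tested genes. The difference was negative for 37 of 47, with a median of -0.054. Over all tested genes it was negative for 7484 of 13528, with a median of -0.022. A common shift of these lists was not tested. The gene that rose was Rhbdf1, a partner of the TNF sheddase Adam17, from 7.39 and 7.25 to 7.82 and 7.71 (0.45, SE 0.106, adjusted p = 0.0154). The call was lost when wild-type replicate 2 was left out (0.38, adjusted p = 0.136) or with no minimum on the mean rlog (adjusted p = 0.112).

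The largest negative difference was that of Nfkbia, the inhibitor of NF-kappaB that NF-kappaB itself induces. It stood at 14.77 and 14.88 in wild type and at 14.35 and 14.52 in DKO (-0.39, SE 0.123, adjusted p = 0.0581). It passed without the variance trend (adjusted p = 0.0313), with a robust variance estimate (adjusted p = 0.0183) and without DKO replicate 2 (adjusted p = 0.00816), but was -0.088 with quantile normalization. The adaptors Traf1 to Traf6 lay between -0.14 and 0.05, and the death genes Fadd, Casp8, Cflar, Ripk3, Mlkl and Bid between -0.15 and 0.17. Adam17 was at -0.034. Of family and related genes outside the symbol rule, Relt (-0.3, adjusted p = 0.0889), Tnfaip8, Tnfaip6 and Edaradd did not pass, and Eda and Edar were too low to test.

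**Figure D5:**
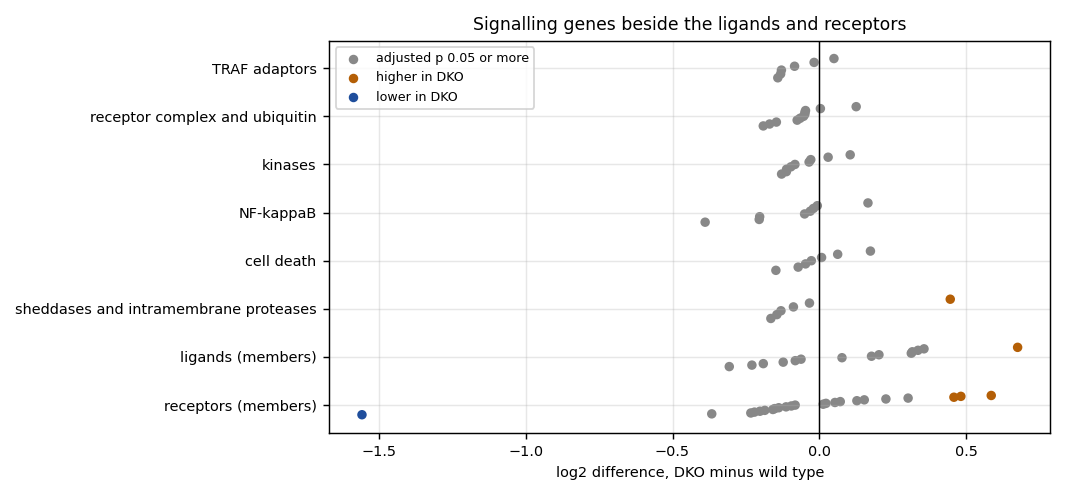
Differences of DKO minus wild type (log2 scale) for each tested gene of the 6 signalling lists, beside the tested ligands and receptors, with each point a gene. The signalling genes lie between -0.39 and 0.45, with Rhbdf1 the single orange point, while the receptors reach down to Tnfrsf26 at -1.56.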

How the data were processed

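Stranded mRNA libraries of 4 LPMC samples were compared, 2 for each treatment named in the labels. Replicate numbers follow the order of entry and pair nothing. Labels do not mention separate animals, so the p-values reflect spread among these samples, which may be technical. The log2 values were deposited by the authors as rlog of DESeq2, judging by the table's name and the submitters' processing notes, which also list STAR 2.5.4a, Subread 1.5.2 and GRCm38. Not given in the sources used here: the parameters. Another 2 columns match no labelled sample and were not used.

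Symbols, positions and exon lengths came from GENCODE for GRCm38 (48144 of 48526 identifiers matched). Using limma 3.58.1 in R 4.3.3, group was fitted as the only term where the 4 samples averaged an rlog of 4 or more, with a variance trend (8.9 prior and 2 residual degrees of freedom), two-sided tests and Benjamini-Hochberg adjustment. The fit was tested on simulated data with variances drawn from the fit itself, which cannot show that the model suits these values. Of the 44 members 37 were tested. Cd70, Ngfr, Tnfrsf13c, Tnfrsf17, Tnfsf13, Tnfsf13os and Tnfsf18 were not. Members, classes and lists were chosen with earlier results of these data known. Named were all members that passed, their pair partners, other members by role, and list genes that passed or that a sentence counts. Alternatives are given in the closing section. Tables and figures used Python 3.11.15, pandas 2.3.3 and matplotlib 3.10.9.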

Additional observations from a re-analysis of the deposited data

How the results depend on the processing

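Of 477 values of single members under 13 alternatives, 438 kept their side of the threshold, 14 lost it, 25 gained it and 0 called values changed sign. Tnfrsf26 passed in each of them. All genes called numbered 1998, and 206 with no minimum on the mean rlog, 1195 at an adjusted p under 0.01, and 1332 to 2882 when single samples were left out. Members that rose numbered 4 in the main test, 0 with no minimum, 1 with a minimum of 6, 2 at an adjusted p under 0.01, 8 at under 0.1, and 2 to 8 without single samples. Members that fell numbered 1, and 2 with median centring, quantile normalization, a robust variance estimate, no variance trend or a threshold of 0.1, and 1 to 6 without single samples. Signalling genes that rose numbered 1, and 0 with no minimum or at 0.01, and 0 to 1 without single samples. Those that fell numbered 0, and 1 with a robust variance estimate, no variance trend or a threshold of 0.1, and 0 to 2 without single samples. With a minimum of 6 fewer genes are tested. For the other settings the cause was not tested. Where a sample is left out, only the other group shows spread. The variance of a gene is then drawn largely towards the trend over all genes, and the lone sample is assumed to share it. A gene's own spread therefore counts for little in those fits. No paired analysis was possible because the labels give no replicate numbers. Depth is unknown. The shrinkage of rlog can lower both the differences and the spread of low members such as Eda2r and Tnfrsf19. Its effect on their calls was not tested.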
